A study of Saccharomyces cerevisiae W303 with 8 samples.

Results

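Between 10 and 20 min of salt stress, transcript levels were compared in yeast cells labelled as lacking CDC55, with 1 array at 20 min and 1 at 10 min. Of 6228 genes on the array, 5926 gave a sample signal well above background at both times and make up the comparison. The cdc55 strain is Saccharomyces cerevisiae W303 with the genotype msn2msn4cdc55 pMsn2pMsn2DNES, treated with 0.4 M NaCl for 10, 20 or 30 min or left untreated (0 min). A control strain with the genotype msn2msn4 pMsn2pMsn2DNES was sampled at the same times, so the msn2 and msn4 mutations and the pMsn2pMsn2DNES construct are common to all samples. The labels do not spell out that construct's name. Every array set a sample in the Cy5 dye against the same kind of Cy3 reference, the untreated control strain, and the whole series holds 8 arrays, 1 per strain and time. All values are log2 ratios of sample over reference, and a change is the ratio at 20 min minus that at 10 min, so that 1.00 stands for 2-fold.

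Raised external salt withdraws water from yeast cells and switches on the Hog1 MAP kinase, which drives synthesis and retention of glycerol as a compatible solute. The transcript response is typically a pulse: stress genes rise, genes for making ribosomes fall, and both move back as cells regain volume. Msn2 and Msn4 are activators of a broad stress programme, and Cdc55 is a B-type subunit that directs the phosphatase PP2A to its substrates.

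With 1 array per time there is no replicate check, and no p-value is given. A change was called only if it was over 2-fold on the mean of a probe's 2 spots. The 2 spots of a probe gave changes that differed with an SD of 0.16. On the control array at 0 min, where the same untreated strain was in both dyes, the ratios had an SD of 0.15, and 2 of 5922 genes lay beyond 2-fold. Neither measure covers the spread between cultures. A ratio is relative to the total RNA labelled, so a shift in total RNA per cell is not seen, and in a bulk culture fewer cells with a transcript and less of it per cell cannot be told apart.

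The identity of the 20 min array had to be settled first. The file attached to cdc55 at 20 min holds the values that the authors' value table gives for control at 30 min, and the reverse. Each equalled the other sample's column in 100% of paired rows and its own in 2.17%. Rows were paired with probes through files and columns whose values already matched, so the 100% is largely built in. The pairing itself succeeded for 5672 of 5742 complete rows (98.8%). Both files were put back according to the value table, as were the exchanged arrays of cdc55 at 0 min and control at 10 min. On the 4 arrays whose attachment is not in doubt, 42 genes separated both cdc55 arrays from both control arrays by more than 2-fold. The array used here as cdc55 at 20 min fell on the cdc55 side for 38 of the 42, and the array used as control at 30 min for 2 of the 42. ADE2, a purine synthesis gene used as a strain marker in W303, had ratios of 1.86, 2.79, 3.04 and 2.95 at 0, 10, 20 and 30 min in the cdc55 strain, against 0.00, 0.96, 0.51 and -0.11 in the control strain. CDC55 itself had ratios of -0.54, -0.23, -0.43 and -0.54 in the cdc55 strain and 0.11, 0.14, 0.22 and 0.46 in the control strain. It was lower in the cdc55 strain at each time, but its probe stayed well above background on every array, so the array does not show a lost transcript. The MSN4 probe, too, was well above background in both dyes on every array. MSN4 ratios at 0 and 10 min were -0.12 and 1.11 in the cdc55 strain, and -0.00 and 1.08 in the control strain. For MSN2 the Cy3 reference was not well above background at 10 or 20 min in the cdc55 strain.

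More genes fell than rose past 2-fold. At 20 min 59 genes (0.996%) were over 2-fold higher than at 10 min and 189 (3.19%) were over 2-fold lower, 3.20 genes lower for each one higher. That imbalance depends on the threshold: past 1.5-fold 400 genes were higher and 572 lower, and 52.2% of all genes had a positive change. Most transcripts held their level: 4954 genes (83.6%) stayed within 1.5-fold, the median change was 0.02, and the extremes were 2.61 for RRN11 and -3.03 for NRG1. The 2 spots moved the same way in all 245 called genes with both spots, and each spot alone passed 2-fold for 52 of the higher and 165 of the lower genes. Calls near the threshold are not sharply separated from the rest: BUD22 at 1.006 and URM1 at -1.002 lay just inside it, and PHO92 at 0.999 and GAT4 at -0.997 just outside. Over the same interval in the control strain 104 of 5901 genes (1.76%) were higher and 262 (4.44%) lower. The changes in the 2 strains had a Pearson correlation of 0.618 across 5901 genes, which share probes and the reference RNA and are not independent replicates.

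**Figure D1:**
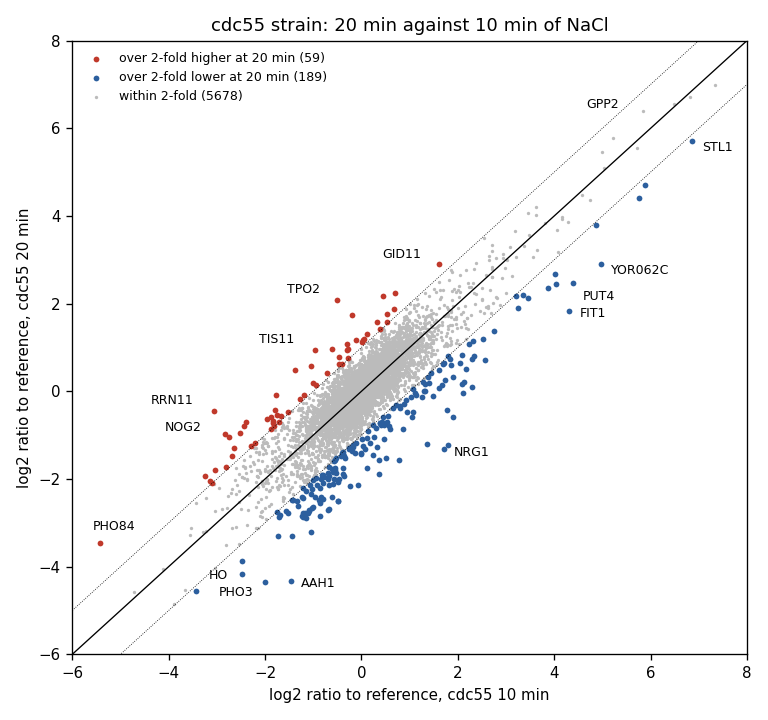
Log2 ratio to the reference at 20 min (vertical axis) against 10 min (horizontal axis) in the cdc55 strain, 1 point per gene. The solid line marks equal levels and the dotted lines 2-fold; 59 genes lie above the upper dotted line and 189 below the lower one.

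Most of the genes that built up had first declined. Of the 59 higher genes 36 had been over 2-fold lower at 10 min than before NaCl, 15 had been within 1.5-fold and 3 had already been over 2-fold higher. At 0, 10, 20 and 30 min the median ratio of the 59 was 0.34, -1.28, -0.08 and 0.70. The 10 min array enters both the earlier and the later change, so an error in it would push them in opposite directions. The control strain's first 10 min share no array with the comparison and give another grouping. Of the 340 genes that were over 2-fold lower there (5.75% of genes), 36 (10.6%) then rose in the cdc55 strain between 10 and 20 min, against 16 of 4181 genes (0.38%) that had been within 1.5-fold in the control strain. Those 340 genes also held 29 (8.53%) that were lower, so early decline was followed by change in both directions. Of the 416 genes that were over 2-fold higher in the control strain's first 10 min (7.03%), 1 was higher and 60 (14.4%) were lower.

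The largest rise was that of RRN11, a subunit of the core factor that brings RNA polymerase I to ribosomal DNA. Its ratios were 0.51, -3.06, -0.45 and -0.07 at 0, 10, 20 and 30 min in the cdc55 strain, a change of 2.61 between 10 and 20 min, against 0.89 in the control strain. RRN11 was thus lowest at 10 min and closer to the reference at 20 and 30 min. It stayed below its own 0 min level, with a difference of -0.58 between 30 and 0 min. PHO84, the high-affinity phosphate transporter, took the same shape from a lower start, with ratios of -1.95, -5.43, -3.46 and -2.01. It rose by 1.97 in the cdc55 strain, while the control strain changed by -0.55. AQR1, a plasma membrane transporter of the major facilitator family, had ratios of 0.68, -1.77, -0.08 and 0.86, and REI1, a cytoplasmic factor in 60S subunit maturation, had 0.76, -2.53, -0.94 and 0.78. Both were back at or above the untreated level by 30 min. RFU1, an inhibitor of ubiquitin chain disassembly, had 0.33, -2.44, -0.80 and 0.88.

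TPO2, a polyamine exporter of the plasma membrane, went beyond recovery. Its ratios were 0.77, -0.51, 2.09 and 2.74 at 0, 10, 20 and 30 min, so that the 2 later arrays both lay above the 2 earlier ones. The change of 2.60 compares with 1.36 in the control strain. Its relative TPO4 moved the other way: its ratios were -1.16, 1.78, -0.43 and -1.17, a change of -2.21. TPO1 also fell, by 1.18, and TPO3 had a change of 0.71, within 2-fold. The 4 polyamine exporters thus had no common direction.

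Late risers were few. The 15 genes that were within 1.5-fold during the first 10 min and then rose included TIS11, which encodes an RNA-binding protein that lowers mRNAs of iron-using proteins. TIS11 had ratios of -1.21, -0.96, 0.95 and 1.30 in the cdc55 strain, a change of 1.90, against 2.48 in the control strain. YTP1 had 0.47, 0.70, 2.25 and 2.64. MRS4, a mitochondrial iron carrier, had 0.10, 0.11, 1.30 and 1.19. In these 3 genes most of the rise lay between 10 and 20 min, and it was still present at 30 min. MIG2, a repressor of glucose-repressed genes, rose by 1.24, PIM1, the mitochondrial Lon protease, by 1.12, NDE2, an external NADH dehydrogenase, by 1.04, and GUD1, a guanine deaminase, by 1.24. Of the 15 genes 7 were over 2-fold higher at 30 min than at 0 min, where 216 of all genes (3.64%) were higher and 168 (2.83%) lower. The 30 min array had no part in sorting genes by their course, but the 0 min array enters both the sorting and the difference between 30 and 0 min, so these differences are descriptions.

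Only 3 genes were over 2-fold higher in both intervals. GID11, a substrate receptor of the GID ubiquitin ligase, had ratios of -0.23, 1.61, 2.90 and 2.42, and GPM2, a homologue of phosphoglycerate mutase, had -0.78, 0.33, 1.58 and 1.34. For PCH2, a meiotic checkpoint ATPase and the remaining one, the Cy3 reference was not well above background on both arrays, so its ratios of -1.05, 0.45, 2.17 and 0.57 are uncertain; its Cy5 signal alone changed by 1.72. All 3 stayed over 2-fold above their 0 min level at 30 min.

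The genes already in decline had 3 histories: of the 189 lower genes 63 had risen over 2-fold by 10 min, 42 had been within 1.5-fold and 40 had already fallen over 2-fold. The other 44 lay between 1.5-fold and 2-fold in the first interval. Of the 418 genes that had risen by 10 min (7.05%), 266 then stayed within 1.5-fold, 63 fell and 3 rose further. For the 63 the median difference between 30 and 0 min was 0.08 and 40 were within 1.5-fold of the untreated level, whereas for the 266 it was 0.84 and 101 were still over 2-fold higher.

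The 2 largest falls of all genes measured were those of NRG1 and NRG2, which encode zinc finger repressors that act on glucose-repressed and stress genes. NRG1 had ratios of 0.07, 1.71, -1.32 and -0.92 at 0, 10, 20 and 30 min, and NRG2 had -0.30, 1.79, -1.23 and -1.15. Both were over 2-fold below the reference at 20 min after a peak at 10 min, with changes of -3.03 and -3.02 in the cdc55 strain, against -2.54 and -2.19 in the control strain. CIN5, a basic leucine zipper factor linked to salt tolerance, had ratios of 0.02, 2.30, 0.11 and -0.09, a complete pulse. It fell by 2.20 in the cdc55 strain and by 1.33 in the control strain, where it was still at 1.95 at 20 min. Among 23 stress transcription factors and repressors 5 were lower (NRG1, NRG2, CIN5, RPN4 and ROX1) and MIG2 was higher, where 3.19% of all genes were lower and 0.996% higher. The list median was -0.09 beside 0.02 for all genes. UPC2, the activator of sterol synthesis genes, fell by 2.25 with ratios of -0.17, 0.36, -1.89 and -1.12, and was the only one of 26 ergosterol genes called.

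RPN4 fell while the genes it is known to activate had small positive changes. RPN4 is the transcription factor of the proteasome genes, and its ratios were 0.69, 1.91, 0.32 and 1.13 in the cdc55 strain. It fell by 1.59 between 10 and 20 min, and by 1.35 in the control strain. None of the other 35 proteasome genes passed 2-fold, but all 35 had a positive change, with a range of 0.09 to 0.88 and a median of 0.46, where 52.2% of all genes were positive. PRE6, a core subunit, had a change of 0.88 and RPT2, a regulatory particle ATPase, 0.87. The same 35 genes were all positive in the control strain. Their median difference between 30 and 0 min in the cdc55 strain was 0.51.

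**Figure D2:**
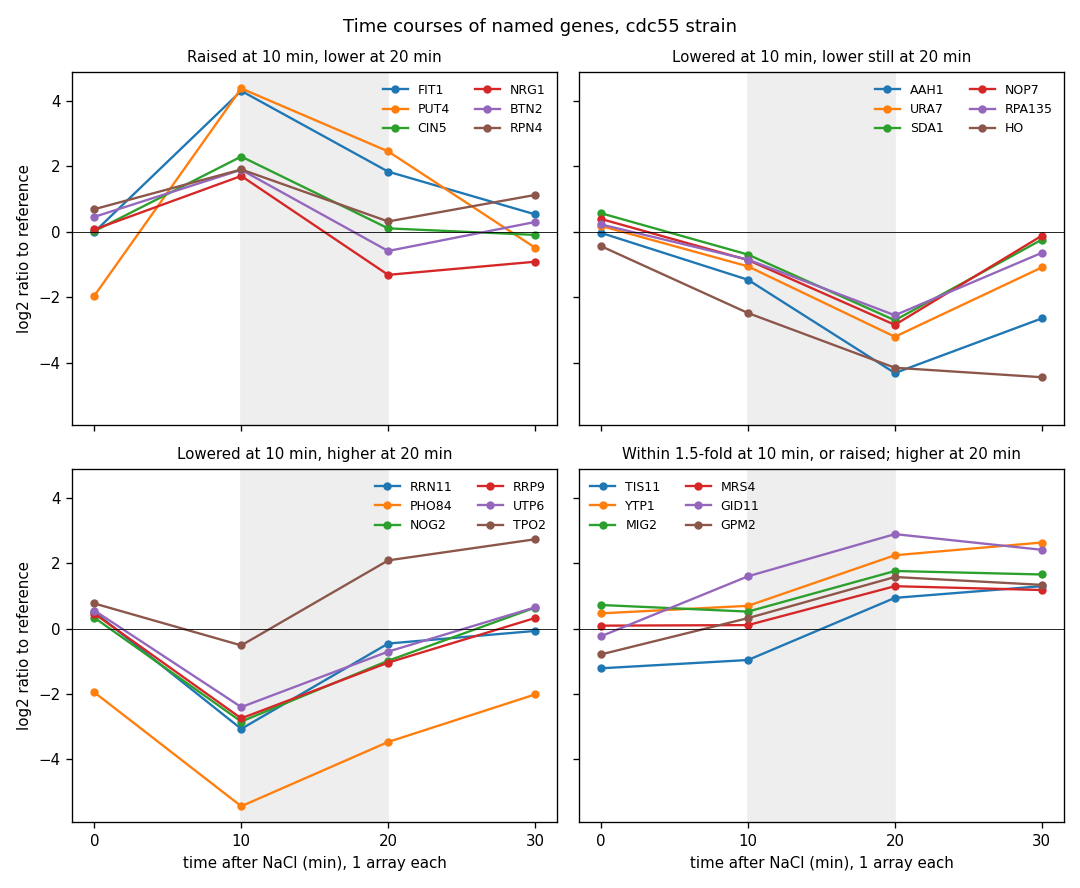
Log2 ratio to the reference (vertical axis) at 0, 10, 20 and 30 min after NaCl (horizontal axis) in the cdc55 strain for 24 named genes, 1 array per time, with the interval from 10 to 20 min shaded. FIT1, PUT4 and CIN5 are lower after a peak at 10 min, AAH1 and SDA1 are lowest at 20 min, HO is lowest at 30 min, and RRN11 and NOG2 are lowest at 10 min.

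Osmolyte and membrane transport genes split between sustained and declining. STL1, the glycerol and proton symporter, had ratios of -0.45, 6.85, 5.71 and 5.13: it fell by 1.14 between 10 and 20 min but stayed far above its untreated level. In the control strain STL1 had 6.52 at 20 min and 6.49 at 10 min, a change of 0.03. GPP2, which makes glycerol from glycerol 3-phosphate, had ratios of -0.60, 5.85, 6.39 and 6.12, and GPD1, the enzyme before it, 0.22, 5.72, 5.56 and 4.50. No spot was flagged as saturated on any array, but GPP2 was among the brightest probes, and its Cy5 signal alone changed by 0.02. Neither GPP2 nor GPD1 passed 2-fold between 10 and 20 min, and STL1 was the only one of 15 glycerol genes that did. Past 2-fold 3.19% of all genes were lower. The Cy5 signal of STL1 alone changed by -0.69, not scaled for the brighter 20 min array. The list medians were 0.32 in the cdc55 strain and 0.30 in the control strain. PUT4, the proline permease, had ratios of -1.96, 4.39, 2.46 and -0.48. It fell by 1.93 in the cdc55 strain, whereas the control strain stood at 4.88 at 20 min and 4.87 at 10 min. ENA1, the sodium pump, had 2.15 at 20 min and 2.78 at 10 min, within 2-fold. FIT1, a cell wall mannoprotein that retains iron siderophores, had ratios of -0.01, 4.31, 1.84 and 0.54 and fell by 2.47.

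Among 22 iron uptake genes measured, FIT1 and FET4 fell while TIS11 rose. The counts of this and the next 2 lists stand beside 3.19% of all genes lower and 0.996% higher. SIT1, a siderophore transporter, lay just under the threshold at 0.99, with ratios of -1.34, -1.45, -0.46 and 1.28, and FET3, the ferroxidase of high-affinity uptake, changed by 0.94. The list median was 0.18, against 0.21 in the control strain. Of 16 phosphate starvation genes PHO84 rose and PHO12 fell by 1.13. PHO12 encodes an acid phosphatase with a near-identical copy, PHO11, which its probe may not separate. The list median was 0.12 in the cdc55 strain and -0.63 in the control strain. There 3 genes were lower, beside 4.44% of all genes of that strain. HXT2 and HXT4, high-affinity glucose transporters, fell by 1.64 and 1.74 and were the only ones of 13 hexose transporters called.

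Sulfur metabolism was the biosynthetic list with the most calls. Of 24 genes for sulfate assimilation and methionine 8 were lower and none higher, and 22 had a negative change, with a median of -0.64. Among all genes 3.19% were lower and 2834 of 5926 had a negative change. MET2, which makes O-acetylhomoserine, had ratios of -1.60, -0.08, -2.15 and -2.46, and SUL2, a sulfate permease, had -1.33, 0.51, -1.53 and -1.74. In both, the brief rise at 10 min was gone at 20 min, with changes of -2.07 and -2.04 in the cdc55 strain, against -0.77 and -1.05 in the control strain. MMP1, MET6, SAM1, MET10, STR3 and the methionine permease MUP1 fell by 1.15 to 1.62. In the control strain 2 of the 24 genes were lower, with a median of -0.53. All 9 lysine synthesis genes had a negative change and LYS4, homoaconitase, was called at -1.59. LEU9, an isopropylmalate synthase, fell by 1.85, the only one of 13 genes in leucine, isoleucine and valine synthesis to be called.

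AAH1, adenine deaminase of purine salvage, declined throughout the first 20 min, with ratios of -0.03, -1.47, -4.32 and -2.65 in the cdc55 strain. Its change of -2.85 was close to the -2.87 of the control strain. Of 13 purine salvage and GMP synthesis genes AAH1 fell and GUD1 rose, where 3.19% of all genes were lower and 0.996% higher. URA7, CTP synthase, had ratios of 0.18, -1.06, -3.21 and -1.09. HO, the mating-type endonuclease, fell by 1.67 and had not turned upward at 30 min, with ratios of -0.44, -2.49, -4.16 and -4.45. Its change of -0.29 between 20 and 30 min was within 1.5-fold. HO thus differed from AAH1 and URA7, which had both turned upward by 30 min.

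Protein-folding genes had negative changes almost throughout, most of them small. Of 25 chaperones and disaggregases 24 had a negative change, where 2834 of 5926 genes did. The list median was -0.42 in the cdc55 strain, against -0.14 in the control strain. Past 2-fold 3 of the 25 were lower, where 3.19% of all genes were. BTN2, which sorts misfolded proteins, had ratios of 0.46, 1.90, -0.59 and 0.30, a change of -2.48, against -2.07 in the control strain. FES1, a nucleotide exchange factor of Hsp70, fell by 1.16 and HSP78, the mitochondrial disaggregase, by 1.14. HSP104, the cytosolic disaggregase, changed by -0.87 and HSP42, a small heat shock protein, by -0.69, both within 2-fold. APJ1, an Hsp40 co-chaperone outside the list, fell by 2.34, with ratios of 0.04, 0.78, -1.56 and -0.31.

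Genes of the Msn2/Msn4 stress response element stayed near their 10 min level as a group. Of 55 such genes none was higher and HSP78 was lower, with a median change of 0.05 in the cdc55 strain. In the control strain 11 of the 55 were higher, with a median of 0.57, and 54 of 55 had a lower change in the cdc55 strain than in the control strain, where over all genes 3105 of 5901 did. The median ratio of the list was 1.46 at 20 min and 1.37 at 10 min in the cdc55 strain, and 2.30 at 20 min and 1.75 at 10 min in the control strain. CTT1, catalase T, had ratios of 0.48, 7.33, 6.98 and 5.89 in the cdc55 strain, near the top of the array's range. HSP12, a small membrane-associated stress protein, changed by 0.08 in the cdc55 strain, against 1.23 in the control strain, and PGM2, phosphoglucomutase, by 0.07, against 1.30. The 54 of 55 is a difference between strains that rests on 4 arrays and was not tested. Other lists share members with this one, among them 6 of its genes with glycogen metabolism and 5 with the chaperones. None of the 14 glycogen genes or 7 trehalose genes passed 2-fold; their medians were -0.35 and 0.19 in the cdc55 strain, against 0.20 and 0.57 in the control strain.

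**Figure D3:**
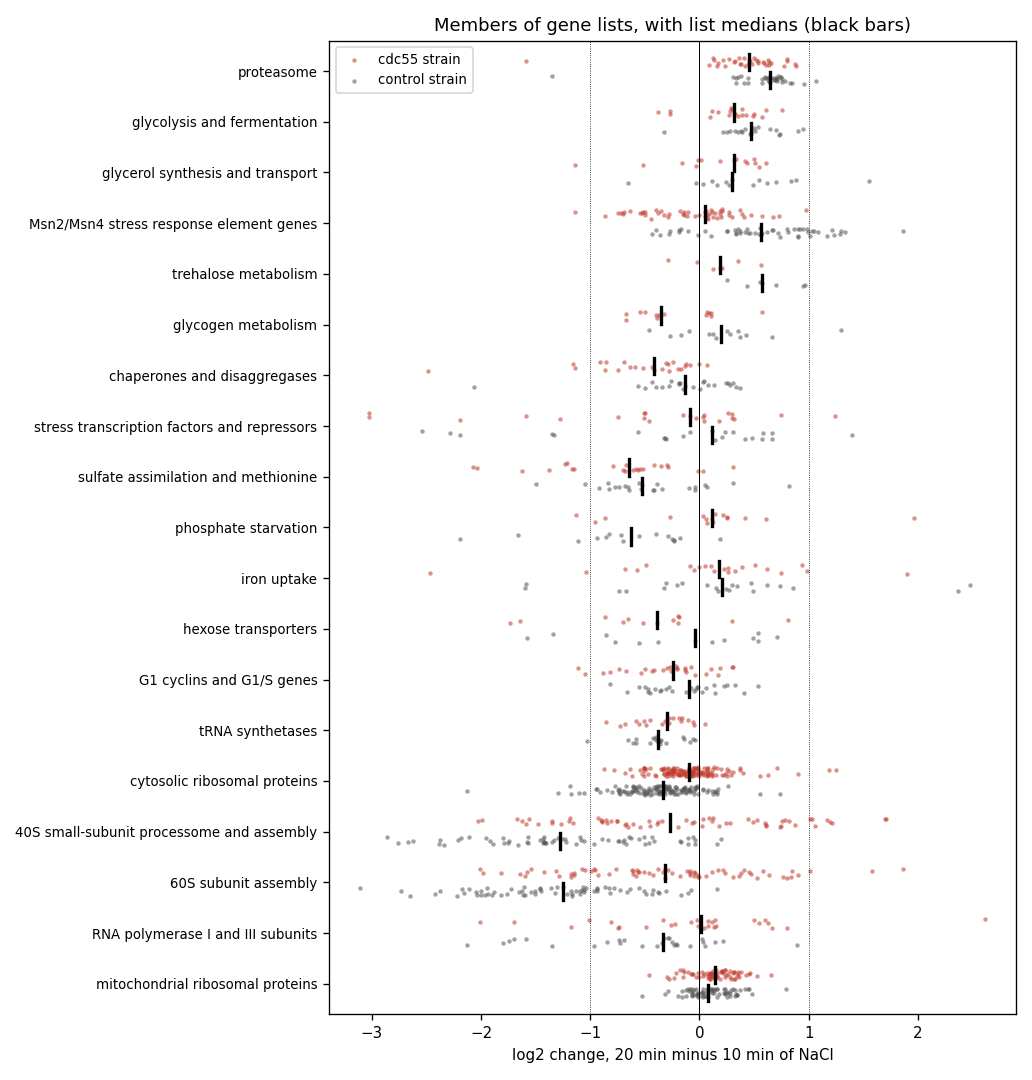
Log2 change between 10 and 20 min (horizontal axis) for the members of 19 gene lists (rows), with the cdc55 strain (red) above the control strain (grey). Points are genes, black bars are list medians and dotted lines mark 2-fold; the medians of the Msn2/Msn4 list are 0.05 in the cdc55 strain and 0.57 in the control strain.

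Ribosome assembly was the large group in which genes went both ways. Of 135 genes for 40S and 60S assembly 116 had fallen over 2-fold by 10 min, where 432 of all genes (7.29%) had. Between 10 and 20 min 11 of the 135 (8.15%) rose and 29 (21.5%) fell, beside 0.996% and 3.19% of all genes. The spread among members (SD 0.88) was wider than that of all genes (SD 0.47). The 11 that rose were RCL1, ALB1, UTP9, SOF1, UTP15, SLX9, UTP25, REI1, UTP6, RRP9 and NOG2. NOG2, a GTPase of 60S maturation, had ratios of 0.34, -2.84, -0.98 and 0.65, RRP9, a U3 snoRNP protein, had 0.46, -2.74, -1.04 and 0.33, and UTP6, of the small-subunit processome, had 0.56, -2.40, -0.70 and 0.66. Each was lowest at 10 min and above its reference at 30 min. Among the 29 that fell, ENP2 had 0.63, -0.49, -2.51 and 0.08, SDA1 had 0.57, -0.70, -2.71 and -0.24, and NOP7, which joins the pre-60S particle, had 0.39, -0.86, -2.85 and -0.12. These 3 were lowest at 20 min and near the reference by 30 min, but below their own 0 min level. Their differences between 30 and 0 min were -0.55, -0.81 and -0.51, against 0.31, -0.13 and 0.10 for NOG2, RRP9 and UTP6.

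At 0, 10, 20 and 30 min the 11 had median ratios of 0.49, -2.40, -0.87 and 0.70 in the cdc55 strain, and the 29 had 0.44, -0.69, -2.14 and -0.06. The sets were chosen on the change between 10 and 20 min, which fixes which of those 2 times has the lower value. The control arrays were not used in choosing them, and there both sets had their lowest median at 20 min: the 11 had 0.01, -2.13, -2.35 and -0.74, and the 29 had -0.00, -0.89, -2.72 and -1.96. In the control strain the first 10 min changed the 11 genes by -2.81 to -1.31 and the 29 genes by -1.79 to -0.35, with medians of -2.23 and -0.95. Across all 135 genes the control strain's change in the first 10 min and the cdc55 strain's change between 10 and 20 min had a correlation of -0.58, beside -0.22 over 5915 genes; the 2 changes share no array, only probes and reference RNA. In the control strain between 10 and 20 min none of the 135 genes rose and 87 fell. Among all genes of that strain 1.76% rose and 4.44% fell. The median of the 135 was -1.26 in the control strain, against -0.31 in the cdc55 strain. A higher change in the cdc55 strain was seen for 129 of the 135, and for 2796 of 5901 among all genes. By 30 min 117 of the 135 genes were within 1.5-fold of the untreated level in the cdc55 strain. No share over all genes was taken for that count, so it is not read as particular to these genes. The median difference between 30 and 0 min was 0.10 for the 11 and -0.54 for the 29, beside -0.02 over all genes.

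**Figure D4:**
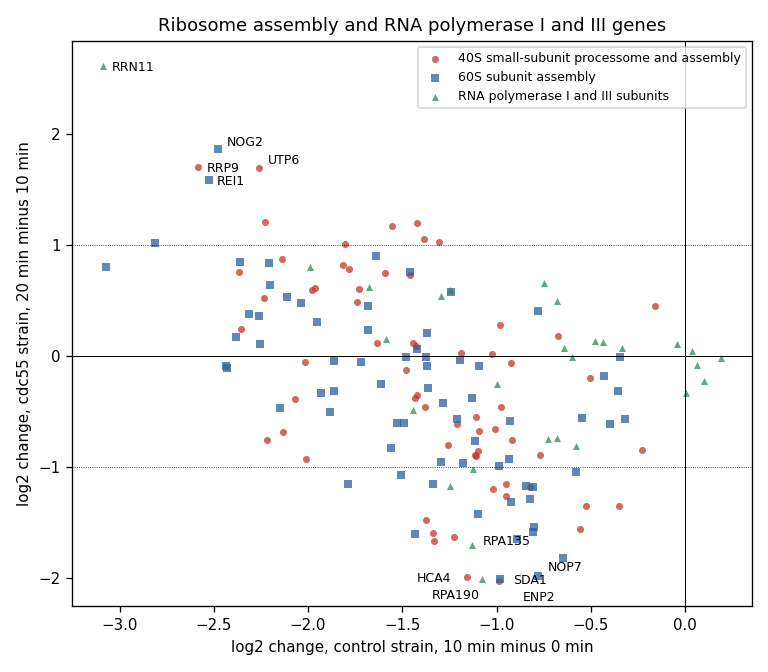
Change between 10 and 20 min in the cdc55 strain (vertical axis, log2) against change in the first 10 min in the control strain (horizontal axis, log2) for 40S and 60S assembly genes and for RNA polymerase I and III subunits. Assembly genes that fell most in the control strain in 10 min lie higher on the vertical axis, with NOG2 at 1.86 and ENP2 at -2.02.

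RNA polymerase genes were called in both directions. Of 28 subunits and factors of polymerases I and III, RRN11 rose and RPA190, RPA135, RPA43 and RPA49, all of polymerase I, fell. That is 1 gene higher and 4 lower, where 0.996% of all genes were higher and 3.19% lower. RPA190, the largest subunit, had ratios of 0.30, -0.48, -2.49 and -0.60, and RPA135, the second largest, had 0.22, -0.85, -2.55 and -0.64. Both were lowest at 20 min, with changes of -2.01 and -1.70. The list median was 0.02 in the cdc55 strain, against -0.34 in the control strain. Cytosolic ribosomal protein genes moved little. Of 136 genes RPS9A and RPS27A rose, by 1.25 and 1.19, none fell, and the median was -0.09, against -0.34 in the control strain; most of these genes come in near-identical pairs that a probe may not separate. Of 20 tRNA synthetase genes 19 had a negative change, where 2834 of 5926 genes did, and none was called, with a median of -0.30.

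The calls among the cell cycle and signalling genes described next were downward, where 3.19% of all genes were lower and 0.996% higher. Among 28 G1 cyclin and G1/S genes CLN1, a G1 cyclin, and YOX1, a repressor of late mitotic and early G1 genes, fell by 1.04 and 1.12. Among 18 components of the Hog1 pathway SSK22, a MAP kinase kinase kinase, fell by 1.45 and SMP1, a MADS-box factor, by 1.38. RTS3, annotated as a putative component of the PP2A complex, had ratios of -0.28, 1.35, -1.21 and -1.52 and fell by 2.56, against -1.58 in the control strain. None of the 12 listed PP2A subunits and regulators passed 2-fold, with a median of 0.14. FKS1, a glucan synthase, fell by 1.08, the only one of 28 cell wall genes called, and ATG5 fell by 1.06, the only one of 21 autophagy genes. None of 21 glycolysis and fermentation genes was called, although 18 had a positive change, where 52.2% of all genes did. Their median was 0.31 in the cdc55 strain, against 0.47 in the control strain.

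Of the other lists reported, 6 held a call, where 3.19% of all genes were lower and 0.996% higher. Beside those shares, 1 call or none in a small list is not read as a result. Among 11 Hog1-dependent osmostress genes, 4 of them shared with the glycerol list, CHA1, a serine deaminase, rose by 1.21 and STL1 fell. Among 18 amino acid permeases PUT4, MUP1 and AGP1 fell, AGP1 by 1.08. PRM10 fell by 1.52 among 24 pheromone response genes and RKI1, ribose phosphate isomerase, by 1.01 among 11 pentose phosphate genes. PRS3, a phosphoribosyl pyrophosphate synthetase, also fell among 18 purine synthesis genes. NDE2 rose among 39 respiratory genes. The medians of these lists lay between -0.34 for the pheromone genes and 0.32 for the Hog1-dependent genes. No member was called among 23 antioxidant, 17 ion transport, 15 calcineurin and calcium, 7 MAP kinase phosphatase, 17 protein kinase A, 10 arginine, 11 copper, 11 histone, 23 mitotic, 71 mitochondrial ribosomal protein and 10 strain marker genes. Their medians lay between -0.38 for the arginine genes and 0.14 for the mitochondrial ribosomal proteins.

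The 30 min array shows where these genes stood later. Genes that rose and then fell had a median difference of 0.08 between 30 and 0 min, and the 36 that fell and then rose had -0.00, with 30 of the 36 within 1.5-fold. The 40 genes that fell in both intervals, 20 of them ribosome assembly genes, had -0.57, and 21 of the 40 were within 1.5-fold. By contrast, the 42 that fell only after 10 min, among them UPC2, SNQ2, TEC1 and KAP123, had -0.75. Of the 42, 19 were over 2-fold lower at 30 min than at 0 min, where 2.83% of all genes were. Of the 42, 1 was an assembly gene, where 135 of all 5926 genes were.

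**Figure D5:**
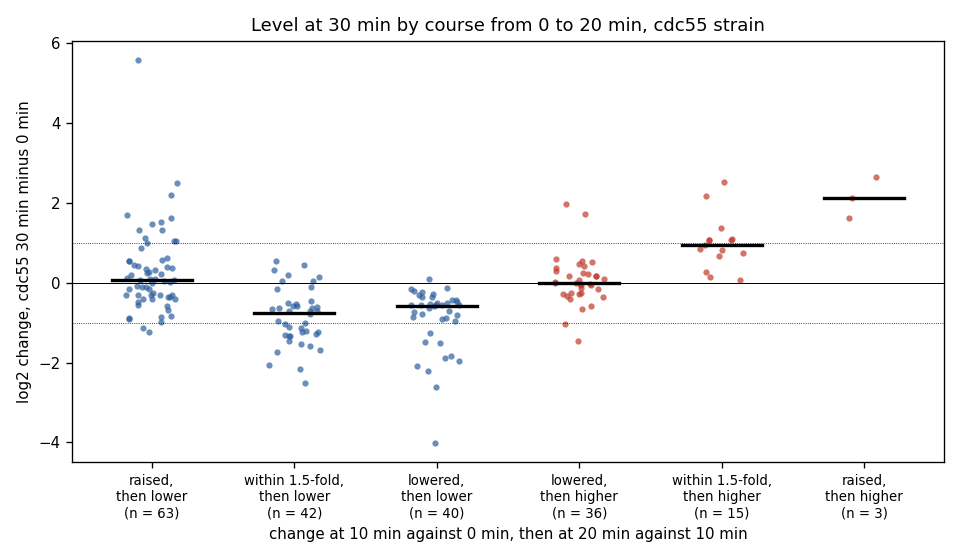
Difference between 30 and 0 min in the cdc55 strain (vertical axis, log2) for genes sorted by their change at 10 min against 0 min and then at 20 min against 10 min (horizontal axis). Points are genes, bars are medians, blue marks genes lower and red genes higher at 20 min; the medians of the genes raised then lower and of those lowered then higher are 0.08 and -0.00.

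The strains can be set side by side over the interval. Of the 189 genes that fell in the cdc55 strain 177 had a negative change in the control strain and 55.6% passed 2-fold downward there, with a median of -1.07 in the control strain. Of the 59 that rose 33 had a positive change in the control strain, 16 passed 2-fold upward and 2 passed it downward, with a median of 0.24. NOG2 was one of those 2. The strains share the reference RNA but no sample array in this interval, and whether any gene differed between them was not tested.

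A further 167 genes were well above background on 1 of the 2 arrays, 159 of them at 20 min and 8 at 10 min. The median Cy5 signal was 2079 units at 20 min and 1743 units at 10 min. A bound could be set for only some of these genes from the dimmest signal counted as above background. The bound passed 2-fold for 7 genes seen at 20 min and 6 seen at 10 min. By it CSM4, a meiosis gene, was at least 4.13-fold lower at 20 min, on the brighter of the 2 arrays. Another 135 genes were not well above background on either array.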

How the data were processed

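RNA from 8 yeast samples was hybridised to 2-colour Agilent arrays, sample in Cy5 and untreated control strain in Cy3, per the labels' protocols. Per the file headers, the deposited scanner files hold a log10 ratio of background-subtracted, dye-normalised Cy5 over Cy3, the intensity of each spot in both channels, and quality flags. Agilent Feature Extraction 10.5.1.1 with build sacCer1 is named in the headers of 5 files; 3 files, which by the assignment used are both 0 min arrays and control at 10 min, have no settings block. The authors' deposited value table holds log2 values; 5672 of 5742 complete rows (98.8%) matched a probe within 0.01, which settled scale and direction.

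The log10 ratio was turned into log2 and averaged over the spots of a probe, leaving out outlier spots. Of 6256 probes, a gene with several (27 genes) was represented by the brightest. Genes needed Cy5 well above background on both arrays. In RefSeq 5740 of 6228 names were found. No coordinates are given, since the annotation's build differs, and no sequence was used. Python 3.11.15, pandas 2.3.3, numpy 2.4.6 and, for normexp and loess, R 4.3.3 with limma 3.58.1 were used.

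The genes described and the 45 gene lists were chosen with earlier results of these data known. The results of 2 of these lists are not reported here. Named genes are the 15 largest rises and 15 largest falls with both dyes above background and all spots moving alike, the 2 highest and 2 lowest members of each list, strain marker genes, and the 5 largest changes in each time-course class. Other genes, among them MRS4, PIM1, TPO1, TPO3, FET3, GPD1, CTT1, HSP12, PGM2, HSP42, SNQ2, TEC1, KAP123 and CSM4, and further called list members were chosen after their values were seen.

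Alternatives were another background correction and normalisation, Cy5 alone, median centring, other filters on dim probes and spots, other folds, means over probes, the value table and the files as attached.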

Additional observations from a re-analysis of the deposited data

Results flagged for a closer look

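The following values had opposite directions in the 2 strains between 10 and 20 min. Each rests on 1 array per strain and time, and the difference was not tested. NOG2, a GTPase of 60S assembly, changed by 1.86 in the cdc55 strain and by -1.06 in the control strain. RFU1, an inhibitor of ubiquitin chain disassembly, changed by 1.64 in the cdc55 strain and by -0.96 in the control strain. The median of 14 glycogen genes was -0.35 in the cdc55 strain and 0.20 in the control strain. The median of 16 phosphate starvation genes was 0.12 in the cdc55 strain and -0.63 in the control strain.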

How the results depend on the processing

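Both the threshold and the assignment of the 20 min array moved the counts. With the files as attached, 312 genes were higher and 257 lower, against 59 and 189, of which 45 and 119 were shared, and the changes of YOR338W (-0.093), PHO3 (0.20), MIG2 (-0.0013), PHO12 (0.52), CLN1 (0.28) and ATG41 (1.58) turned direction. At 1.5-fold 400 genes were higher and 572 lower. Under the other 9 alternatives, 51 to 69 genes were higher and 165 to 205 lower. Background correction with normexp and loess kept 44 of the 59 and 169 of the 189 genes, Cy5 alone kept 43 and 170, and the authors' table of values kept 53 and 183. No paired analysis was possible because each strain and time has 1 array and the labels give no replicate numbers. With 1 culture per time, the spread between cultures is unknown, and genes near background carry at most a bound.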
